A study of Mus musculus with 21 samples.

Results

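The nuclear-encoded subunits of the respiratory chain and of ATP synthase were followed on 21 bead arrays of embryonic mouse small intestine. Members were taken by symbol from the platform annotation: names starting with Nduf (assembly factors named Ndufaf left out), Uqcr, Atp5, Sdha to Sdhd, Cox4 to Cox8, and Cyc1 and Cycs. This gave 126 of the 45281 probes on the array and 81 of 19057 gene symbols. RNA came from E18.5 small intestine of 10 Prdm1-/- embryos, genotype Villin-Cre, Prdm1CA/BEH, and 11 Prdm1+/+ embryos, genotype Prdm1CA/+. Blimp1, the product of Prdm1, is a transcriptional repressor with zinc fingers. The strain of both groups is given as mixed, and their dams carried the R26R allele by the design. Villin-Cre, whose promoter is active in intestinal epithelium, is named for the mutants alone, so that its effect and the effect of the Prdm1 alleles cannot be told apart here. Whole small intestine was profiled, so that fewer cells of a type and less RNA per cell cannot be told apart either.

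The respiratory chain sits in the inner mitochondrial membrane. Complex I takes electrons from NADH and complex II takes them from succinate. Complex III passes them through cytochrome c to complex IV, which reduces oxygen, and the proton gradient that builds up drives ATP synthase, also called complex V. The fetal enterocyte is an absorptive cell whose nutrient transport depends on ATP, and some subunits of complex IV exist as tissue isoforms, of which Cox7a1 is known from heart and skeletal muscle.

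The raw data were brightness values with no gene-length scale, so levels of different probes were not compared as amounts of RNA. Summed marker levels below add signals of different probes, so that bright probes weigh most in them. The intensity ranges below group genes by signal only. Between 14596 and 16085 probes were detected per array, and correlations between arrays ran from 0.971 to 0.993. The Prdm1 probe that gave signal was higher, not lower, in the libraries labelled mutant. It was detected on 10 of 10 arrays labelled mutant, at 7.99 ± 0.59 log2 intensity, and on 0 of 11 labelled control, where the mean was 4.55 ± 0.22. It was at least 7.31-fold higher in the mutants (limma adjusted p = 1.64e-12), and a second Prdm1 probe was detected on no array. The position of these probes relative to the deleted part was not examined, so they do not check the deletion, and mutant and control below mean the libraries labelled so. Of 7 epithelial markers tested, Krt20 (1.47), Vil1 (0.64) and Krt8 (0.46) were higher in the mutants on the log2 scale, Krt18 was lower (-0.66), and Epcam was detected on no array. The summed epithelial marker level ran from 14.73 to 15.28 log2 in mutants and from 14.52 to 15.03 in controls.

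Upstream sequences were taken from RefSeq (GRCm38.p6) for 66 of the 81 symbols. They are shown for the pair of genes whose difference was past the threshold under both scalings below (Cox7a1 and Ndufa4), and for a called member of complex V and of complex I whose windows hold a match to a motif of a mitochondrial regulator. Each is the stretch of 250 bases before the annotated start, 5′ to 3′, with motif matches in capitals. The capitals in Cox7a1 are the reverse complement of the PRDM1 core, those in Atp5h are NRF1 and, on the reverse strand, GABP motifs, and those in Ndufa8 are the NRF1 motif on the reverse strand.

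Cox7a1 (chr7:30183921-30184170, plus strand): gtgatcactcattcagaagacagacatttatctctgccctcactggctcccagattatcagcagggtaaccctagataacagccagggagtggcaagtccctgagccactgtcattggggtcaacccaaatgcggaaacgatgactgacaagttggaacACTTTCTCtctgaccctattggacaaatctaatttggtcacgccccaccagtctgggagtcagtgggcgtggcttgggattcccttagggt
Ndufa4 (chr6:11907451-11907700, minus strand): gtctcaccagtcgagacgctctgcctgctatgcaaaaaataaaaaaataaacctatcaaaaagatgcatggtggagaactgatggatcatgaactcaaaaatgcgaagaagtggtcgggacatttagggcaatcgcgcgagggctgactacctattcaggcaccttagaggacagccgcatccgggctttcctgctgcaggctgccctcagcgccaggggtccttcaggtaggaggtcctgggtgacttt
Atp5h (chr11:115419920-115420169, minus strand): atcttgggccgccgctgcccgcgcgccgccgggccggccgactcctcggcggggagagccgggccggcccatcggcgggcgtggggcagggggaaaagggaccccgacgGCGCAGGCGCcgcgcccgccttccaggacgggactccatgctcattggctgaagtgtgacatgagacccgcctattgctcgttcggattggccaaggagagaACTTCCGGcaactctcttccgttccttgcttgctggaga
Ndufa8 (chr2:36049339-36049588, minus strand): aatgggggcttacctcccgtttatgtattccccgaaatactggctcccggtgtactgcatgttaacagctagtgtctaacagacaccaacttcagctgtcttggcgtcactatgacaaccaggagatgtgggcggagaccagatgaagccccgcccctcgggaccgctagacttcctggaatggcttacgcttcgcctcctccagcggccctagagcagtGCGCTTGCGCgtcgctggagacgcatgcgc

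The motifs searched on both strands, in windows of 300 bases that run to 50 bases past the start, were, for NRF1, GCGC followed by A, any base and GCGC, CCGGAAGT for GABP, AAGATGGCG for YY1, TCAAGGTCA for ESRRA and GNGAAAGT for PRDM1. Some genes have more than 1 window, so genes with a match in any window were counted. NRF1 matches lay in 16 of 66 members (24.2%), against 5.19% of all 27025 genes in the reference set. YY1 matches lay in 7 members (10.6%) and 1.64% of all genes, and ESRRA matches in 2 members (3.03%) and 126 of all genes. GABP matches lay in 4 members (6.06%) and 4.31% of all genes, and PRDM1 core matches also in 4 members (6.06%) and 4.77% of all genes. Member windows had a median GC content of 58.3%, against 52.7% for all windows. A match describes these letters only. NRF1 matches lay in 3 of 22 members called higher (13.6%) and in 12 of 40 members not called (30.0%). The Ndufa4 stretch held none of these motifs.

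Of the 81 symbols, 74 had a probe that passed the filter on signal (detection p under 0.01 on at least 5 of 21 arrays). All 74 probes chosen to stand for these genes, the brightest tested probe of each symbol, were detected on all 21 arrays. The other 7 symbols were Ndufs1, Sdha, Uqcrfs1, Cox6a2, Cox7b2, Cox8b and Cox8c. Of these, 1 Uqcrfs1 probe and the Cox6a2 probe were detected on 1 mutant array each, and none was detected on a control array. The only probe of Sdha, the flavoprotein of complex II, was thus not above background on any array. This does not show that the transcript was absent, as Sdhc also had a probe detected on no array beside a bright one. The array annotation held no probe for the mitochondrially encoded subunits.

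Part of the respiratory chain and ATP synthase transcripts were slightly higher in mutant than in control intestine, and none was called lower. After quantile normalisation, which gives every array the same distribution of values, 27 of the 74 genes were higher in the mutants, 0 were lower and 47 did not pass the test (limma, adjusted p under 0.05 over all tested probes). At an unadjusted p under 0.05, 39 were higher and 0 lower, a count for which no share over all genes was taken. At the adjusted threshold, 10.6% of all 9961 genes were called higher (1054) and 12.6% lower (1253). Of the 74 differences 70 were positive, against 5223 of 9961 over all genes, and the median difference was 0.16 log2 in the members and 0.01 over all genes. Most differences were small: of the 27 called genes, 26 differed by less than 1.5-fold. Beside this count, 3 of 4 liver markers tested, Ttr (-2.53), Fga (-1.82) and Itih3 (-1.65), were lower in the mutants. The liver list's summed level ran from 9.01 to 10.09 log2 in mutants and from 10.89 to 12.47 in controls, and Alb and Apoh were detected on no array. Of 3 colon markers tested, Car1 and 1810065E05Rik were higher and Aqp8 lower, with a summed level of 8.28 to 9.98 in mutants and 8.72 to 9.48 in controls; Car1 was detected on 6 mutant arrays and no control array. Of 6 mesenchyme markers 1, Col3a1, was higher (0.52), with a median of 0.26 and a summed level of 12.72 to 13.20 in mutants and 12.53 to 12.98 in controls. Of 5 pancreas markers 1, Cela1, was lower (-1.31), with a median of -0.95 and a summed level of 8.05 to 14.62 in mutants and 9.81 to 13.64 in controls. The part of these other tissues in the member differences was not tested. Without the 3 control arrays highest in the liver transcript Ahsg, 16 members and 801 of all 9961 genes were called higher. Without the 6 mutant arrays with Car1, 18 members and 556 genes were called higher. No member was called lower in either case.

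The number of calls depended on the scaling. When arrays were instead scaled to a common median, 2 of the 74 members were called higher, Cox7a1 and Ndufa4, and 0 lower, while 4.64% of all genes were called higher (462) and 12.6% lower (1252). Of the member differences 64 stayed positive, against 4018 of 9961 over all genes. The median difference of the members was 0.09 and that of all genes -0.04. With scaling to the 75th percentile 9 members were called higher (7.57% of all genes), with the deposited processed values 12 (9.46%), and with cyclic loess 24 (11.2%, with 12.3% lower). The standard error of a member difference, median over members, was 0.094 log2 with median scaling and 0.062 with quantile normalisation.

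**Figure D1:**
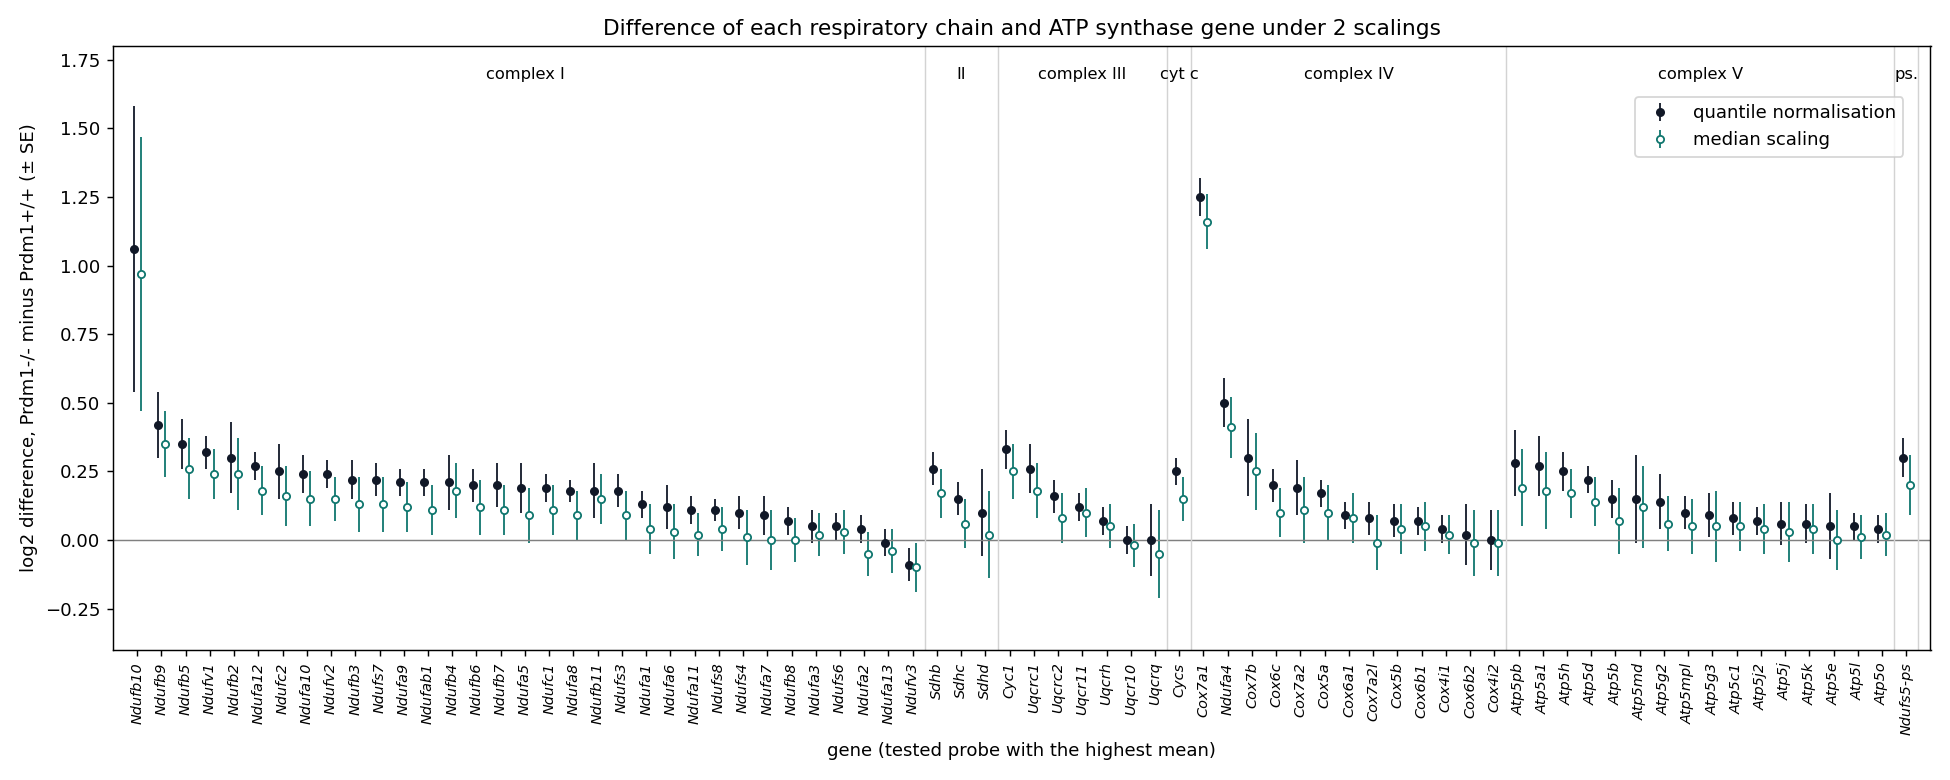
Log2 difference, Prdm1-/- minus Prdm1+/+ (y axis, ± SE of the limma fit), for the 74 genes on the x axis grouped by complex, with quantile normalisation (black) and median scaling (open). Cox7a1 (1.25 and 1.16) and Ndufa4 (0.50 and 0.41) stand clear of zero under both, and the wide bar is Ndufb10.

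The mean level of the members on each array, centred on the 21 arrays, gives the same comparison sample by sample. With quantile normalisation it was 0.10 ± 0.06 log2 in mutants (lowest -0.02, median 0.11, highest 0.17) and -0.09 ± 0.07 in controls (lowest -0.18, median -0.07, highest 0.02). The groups overlapped only between -0.02 and 0.02. With median scaling the spread was wider, at 0.06 ± 0.17 in mutants (-0.30 to 0.25) and -0.06 ± 0.15 in controls (-0.37 to 0.20), and the groups overlapped over most of their range. Within-genotype deviations had a leading component with 32.4% of the variance, which was used after the data were seen to divide the arrays into 10 low and 11 high samples, with 4 and 6 mutants and 6 and 5 controls. Among low samples the quantile-normalised mean was 0.10 ± 0.05 in mutants and -0.03 ± 0.03 in controls, and among high samples 0.10 ± 0.07 in mutants and -0.16 ± 0.03 in controls. Mutant means thus stood above control means in both sets, while with median scaling the low samples were at 0.01 ± 0.12 in mutants and 0.01 ± 0.14 in controls. Within the low samples 4 of 74 members and 553 of all 9961 genes were called higher, and within the high samples 16 and 531. In the low samples the member share was thus close to that of all genes. The interaction of genotype with the split was called for 0 of 74 members (limma), with 5 at an unadjusted p under 0.05 (6.76%, against 2.02% of all genes).

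**Figure D2:**
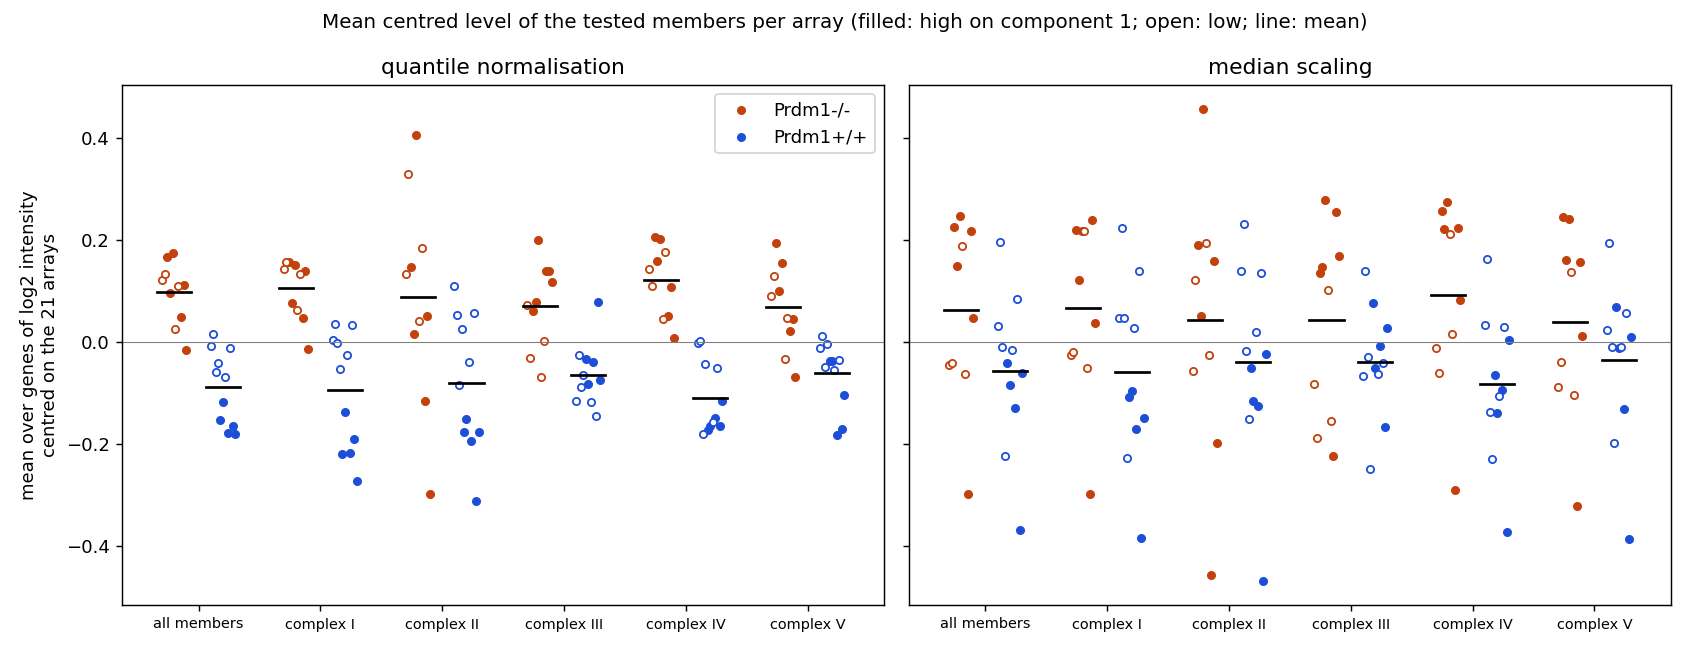
Mean centred log2 intensity of the tested members on each array (y axis), for all members and each complex, mutants left of controls, with quantile normalisation on the left and median scaling on the right. Filled points are the samples high on the leading component, open points the low ones, and lines are group means. The mutant mean (0.10) lies above the control mean (-0.09) for all members under quantile normalisation, and the groups overlap more under median scaling.

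The share of genes called higher was 45.5% in complex I, 33.3% in complex II (1 of 3 genes) and 42.9% in complex III. It was 30.8% in complex IV and 12.5% in complex V, against 10.6% of all genes. No test of the differences between complexes was run. The complexes also differed in probe signal. Members with means above 13 log2, of which 0 of 19 were called, made up a larger part of complex V than of complex I. The part of signal in these shares was not tested. Complex I, the NADH entry point, had 33 of 34 symbols tested. Of these, 15 were higher, 0 lower and 18 did not pass, with 31 positive differences and a median of 0.19 (0.11 with median scaling, under which none was called). Its 5 tested core subunits, the ones conserved from bacteria, were all called, with a median difference of 0.22. Of the 28 accessory subunits 10 were called, with a median of 0.19. This split was made with the values in view. All 5 core genes had means between 11 and 13 log2, where 23 of 35 members were called. Accessory genes also lay below and above that range. Ndufv1, which binds NADH, ranged from 12.73 to 13.24 log2 in mutants (median 13.01) and from 12.58 to 12.77 in controls (median 12.68). Here 9 of 10 mutants lay above every control, the difference was 0.32 ± 0.06 (SE), adjusted p = 4.87e-04, and it was 0.24 with median scaling. Ndufa12, an accessory subunit, ranged from 11.75 to 12.01 in mutants and from 11.45 to 11.75 in controls, a difference of 0.27 ± 0.05 (adjusted p = 5.04e-04). Ndufa10 differed by 0.24 ± 0.07.

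Dimmer probes gave the other large values in this complex. Ndufb9 averaged 7.75 ± 0.35 log2 in mutants and 7.33 ± 0.24 in controls, a difference of 0.42 ± 0.12 (adjusted p = 0.0178). Ndufb5 averaged 8.81 ± 0.24 in mutants and 8.47 ± 0.18 in controls, a difference of 0.35 ± 0.09. The 2 genes not called with the highest means were the accessory subunits Ndufa13 (-0.01) and Ndufv3 (-0.09, adjusted p = 0.284). Ndufb10 had the second largest member difference, at 1.06 ± 0.52, and did not pass (adjusted p = 0.165). On its brighter probe, 2 of 11 controls lay below 7, while the other controls ran from 8.84 to 10.25 and the mutants from 9.38 to 10.86. A second Ndufb10 probe ran from 8.21 to 9.90 in mutants and from 7.92 to 10.09 in controls and differed by 0.22 ± 0.30. The cause of the disagreement between these probes was not tested.

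Several complex I genes gave different answers by probe. Of the 4 probes of Ndufs4, an accessory subunit, the brightest was not called (0.10, adjusted p = 0.283), while the other 3 were called higher, by 0.33, 0.27 and 0.26. Ndufa5 was not called on its brightest probe (0.19) and was called on a dim one (0.44, adjusted p = 0.0193). For Ndufab1, the acyl carrier protein, and for Ndufb6 and Ndufc1, the brightest probe was called (0.21, 0.20 and 0.19) and the others were not. The probes that missed the threshold differed by 0.19, 0.19 and 0.00 for Ndufab1, by 0.30 for Ndufb6 and by 0.15 for Ndufc1. The Ndufb6 call was lost without any of controls 8, 10 and 11 and mutants 2, 7 and 9. Of the 24 member symbols with more than 1 tested probe, 7 differed in call and 4 in sign between probes.

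Complex II had 3 of 4 symbols tested, and 1 of them, Sdhb, was called. Sdhb, the iron-sulphur subunit, ranged from 11.04 to 11.48 log2 in mutants (median 11.17) and from 10.76 to 11.17 in controls (median 10.91), a difference of 0.26 ± 0.06 (adjusted p = 1.86e-03). A second Sdhb probe was called too (0.22), and a dimmer one was not. The membrane anchors Sdhc (0.15, adjusted p = 0.0897) and Sdhd (0.10, adjusted p = 0.755) did not pass, though Sdhc did without control 9. The median of the complex was 0.15, and 0.06 with median scaling.

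Complex III had 7 of 8 symbols tested, of which 3 were higher, 0 lower and 4 did not pass, with a median of 0.12 (0.08 with median scaling). Cyc1, which encodes cytochrome c1, ranged from 11.91 to 12.37 log2 in mutants (median 12.15) and from 11.54 to 12.09 in controls (median 11.83). The difference was 0.33 ± 0.07, adjusted p = 1.36e-03, and 5 of 10 mutants lay above every control. Uqcrc1 (0.26, adjusted p = 0.0498) and Uqcrc2 (0.16, adjusted p = 0.049), the core subunits, lay close to the threshold, and each call was lost when any of 15 of the 21 arrays was left out. The genes not called with the highest means were Uqcr10 (0.00) and Uqcrh (0.07), the hinge protein.

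Cytochrome c, the mobile carrier, is encoded by Cycs in somatic cells. It ranged from 11.53 to 11.79 log2 in mutants and from 11.23 to 11.54 in controls, a difference of 0.25 ± 0.05 (adjusted p = 1.48e-03). Here 9 of 10 mutants exceeded all controls. Other Cycs probes gave 0.18 and 0.37 and were not called. The probe under the symbol Ndufs5-ps, the name of a pseudogene, differed by 0.30 ± 0.07.

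Complex IV, cytochrome c oxidase, had 13 of 17 symbols tested, of which 4 were higher, 0 lower and 9 did not pass. Its median was 0.09, and 0.08 with median scaling. Cox7a1 had the largest called difference of all members. It ranged from 11.50 to 11.77 log2 in mutants (median 11.70) and from 10.07 to 10.80 in controls (median 10.46). All 10 mutants stood above all 11 controls, which held for no other member and for 1.85% of all genes (2.55% stood below all controls). The means were 11.67 ± 0.10 in mutants and 10.42 ± 0.20 in controls, a difference of 1.25 ± 0.07 (2.38-fold, adjusted p = 9.13e-12). The two-sided permutation p was 1e-05, the smallest that 100000 draws can give. Over all 9961 genes, 21, itself included, had a limma p as small and 70 a difference as large. With median scaling the difference was 1.16 ± 0.10 (adjusted p = 1.86e-09).

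The ubiquitous isoform Cox7a2 differed less. It averaged 8.41 ± 0.28 log2 in mutants and 8.22 ± 0.21 in controls, a difference of 0.19 ± 0.10 that did not pass (adjusted p = 0.223). Within arrays, the log ratio of Cox7a1 over Cox7a2 was higher by 1.06 in mutants than in controls (permutation p = 1e-05, adjusted 4e-05 over 4 isoform pairs), which describes unequal change. The same ratio differed by -0.04 for Cox4i2 over Cox4i1 and by -0.05 for Cox6b2 over Cox6b1. It differed by 0.05 for Atp5g2 over Atp5g3, and each of these had a permutation adjusted p = 0.74. Cox4i2 (mean 5.63 log2 in both groups) and Cox6b2 (6.06 in mutants, 6.04 in controls) were dim. The offset of 16 shrinks differences between dim values, so a change in their ratios could be understated. Cox7a1 being a muscle isoform, markers of muscle were read beside it: of 7 smooth muscle genes tested, 0 passed (limma, and 0 at an unadjusted p under 0.05), with a summed level of 15.22 to 15.72 log2 in mutants and 15.24 to 15.75 in controls. Of 4 striated muscle genes 0 passed (8.98 to 9.75 log2 in mutants, 8.85 to 9.70 in controls, and 0 at an unadjusted p under 0.05). Myh6 was detected on no array, and nor was the brown fat gene Ucp1. The other brown fat gene listed, Cidea, was detected on too few arrays to be tested. The part of muscle or brown fat in the Cox7a1 difference was not tested.

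Ndufa4, long counted to complex I and now to complex IV, ranged from 12.26 to 12.80 log2 in mutants (median 12.58) and from 11.74 to 12.40 in controls (median 12.09). Of the 10 mutants, 8 exceeded every control. The difference was 0.50 ± 0.09 (1.41-fold, adjusted p = 1.93e-04), and 0.41 with median scaling (adjusted p = 9.22e-03). It was 12.70 ± 0.11 in mutants and 12.21 ± 0.15 in controls among low samples, and 12.47 ± 0.16 in mutants and 11.88 ± 0.14 in controls among high samples. Cox6c (0.20, adjusted p = 0.0319) and Cox5a (0.17, adjusted p = 0.0154), subunits of the same enzyme, were called higher with quantile normalisation and not with median scaling. Cox6c lost its call on leaving out any of controls 3, 5, 8, 9 and 11 and mutants 5 and 7. The ubiquitous Cox4i1 was at 14.06 ± 0.12 in mutants and 14.02 ± 0.07 in controls (0.04, adjusted p = 0.643), and Cox6a1 differed by 0.09.

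**Figure D3:**
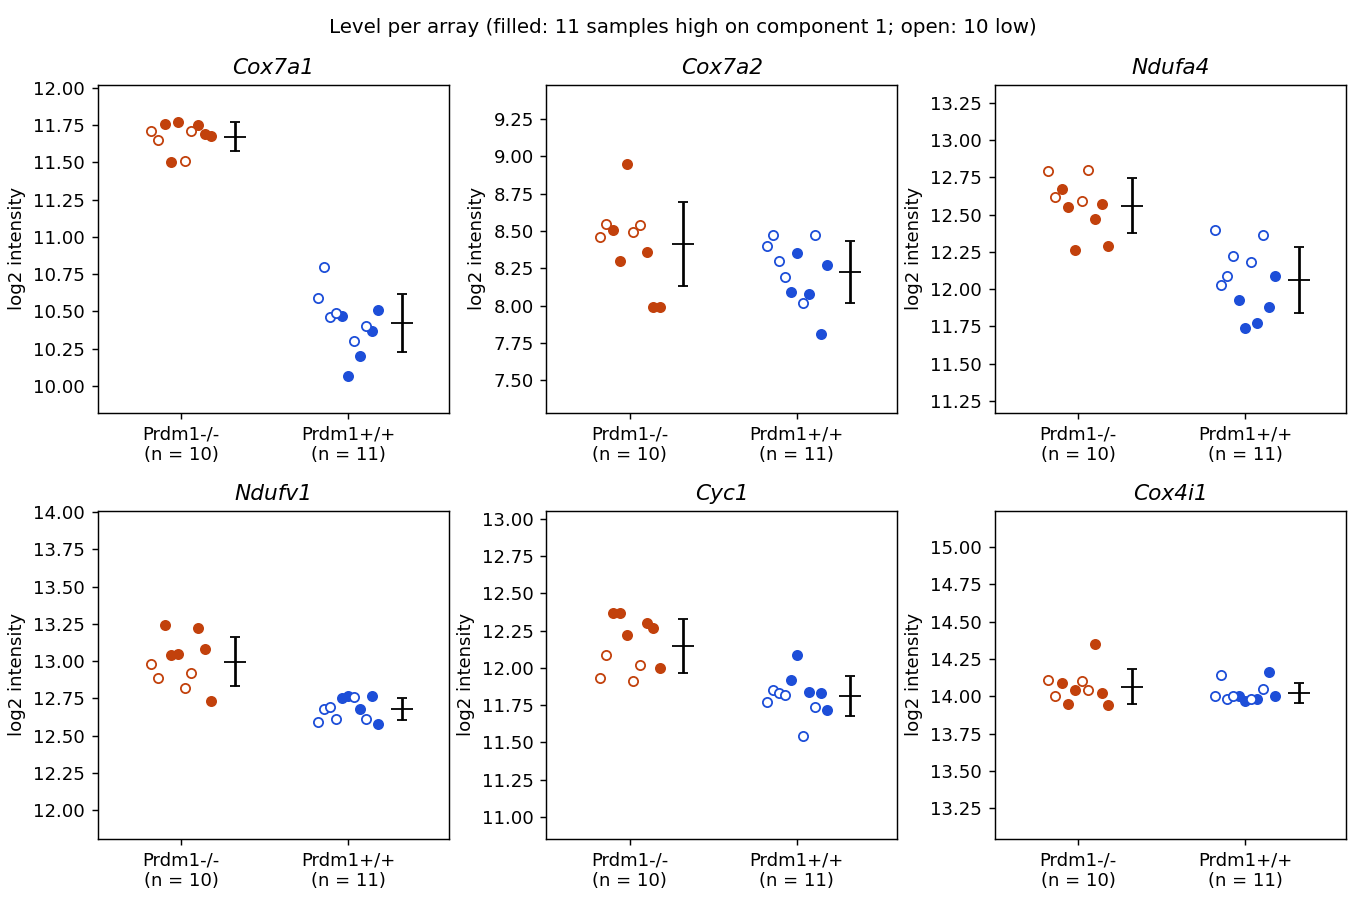
Log2 intensity on each array for 6 members, mutants (n = 10) left of controls (n = 11), with group mean ± SD in black; filled points are samples high on the leading component, open points the low ones. Cox7a1 (11.50 to 11.77 in mutants, 10.07 to 10.80 in controls) has no overlap, and Cox4i1 overlaps throughout.

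Complex V, ATP synthase, had all 16 symbols tested. All 16 differences were positive (15 with median scaling), with a median of 0.09 (0.05 with median scaling). Of the 16, 2 were called and 14 did not pass. This share, 12.5%, was close to the 10.6% of all genes called higher. Atp5h, of the peripheral stalk, ranged from 11.29 to 12 log2 in mutants (median 11.82) and from 11.40 to 11.66 in controls (median 11.53), a difference of 0.25 ± 0.07 (adjusted p = 0.0131). Atp5d, the delta subunit of the F1 part, differed by 0.22 ± 0.05 (adjusted p = 2.61e-03). The catalytic beta subunit Atp5b (0.15, adjusted p = 0.169) and the ring subunit Atp5g3 (0.09), with the highest means among the genes not called, did not pass. Atp5b averaged 14.71 ± 0.13 log2 in mutants and 14.74 ± 0.09 in controls among the low samples, and 15.05 ± 0.10 in mutants and 14.79 ± 0.15 in controls among the high samples (interaction unadjusted p = 0.0236, adjusted p = 1 in limma). Nor was the c ring isoform Atp5g2 (0.14), nor Atp5mpl, whose probes gave 0.10 and -0.02.

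Calls lay mainly in the middle of the intensity range, with limits set after the data were seen. Of 35 members with mean log2 intensity from 11 to 13, 23 were called higher, against 17.5% of all genes there (104 of 595), with median differences of 0.20 for the members and 0.00 for all genes. Of 19 members above 13, 0 were called by limma (1 at an unadjusted p under 0.05), against 9.57% of all genes there (11 of 115), with medians of 0.07 and 0.04. Of 6 members from 9 to 11, 2 were called (13.9% of all genes), and of 14 members below 9, 2 (9.22%). Saturation of bright spots was not recorded in the files and its part was not tested.

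**Figure D4:**
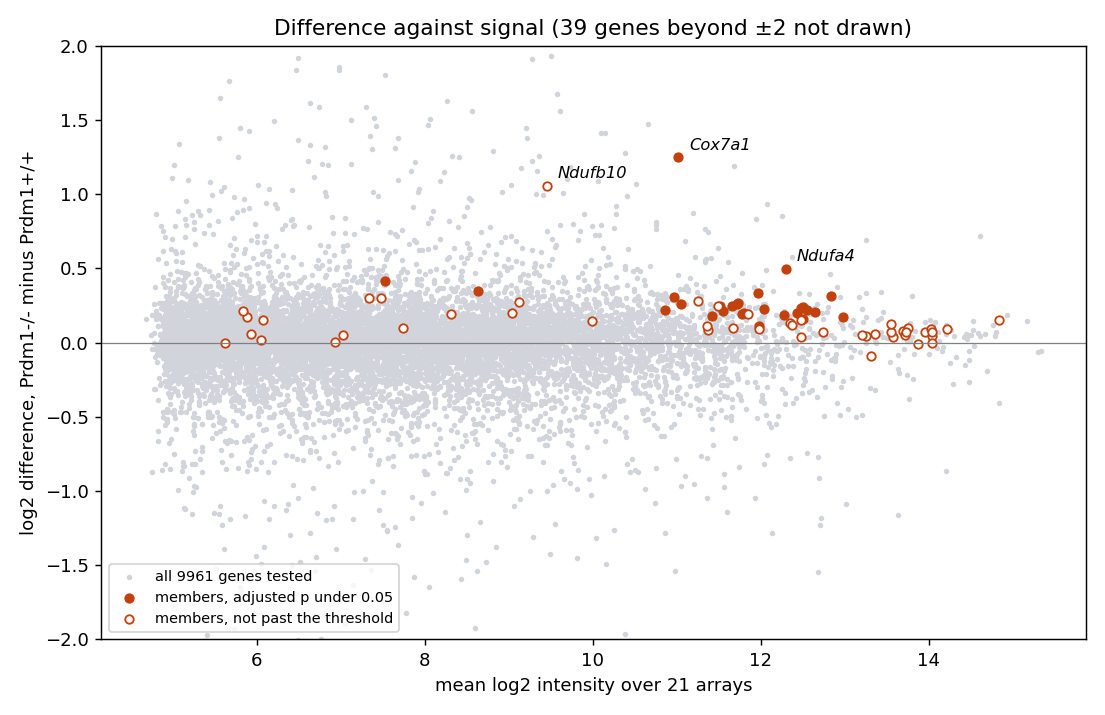
Log2 difference, Prdm1-/- minus Prdm1+/+ (y axis), against mean log2 intensity over the 21 arrays (x axis), for all 9961 genes (grey) and the 74 members (orange; filled where adjusted p is under 0.05). The called members sit mainly between 11 and 13, and 0 of 19 above 13 are filled; 39 genes beyond ±2 are not drawn.

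Other genes of the pathway were read from lists set beside the members, against 10.6% of all genes called higher with quantile normalisation and 4.64% with median scaling. Of 34 assembly factors tested, 9 were higher and 0 lower (median 0.10), with Ndufaf4 at 0.47 ± 0.09, Ecsit at 0.40 ± 0.08 and Cox10 at 0.36 ± 0.08; 2 remained with median scaling, Ndufaf4 and Ecsit. Of 11 citric acid cycle genes, 6 were higher and 0 lower (median 0.27), and 1 was higher with median scaling (median 0.18). The citrate cycle enzyme malate dehydrogenase, Mdh2, averaged 11.71 ± 0.13 log2 in mutants and 11.14 ± 0.17 in controls, a difference of 0.57 ± 0.07 (adjusted p = 2.03e-06), and 0.47 with median scaling. Of 71 mitochondrial ribosomal genes 19 were higher, 0 lower, with a median of 0.11, and of 58 genes with cytosolic ribosomal symbols (which include some Rps6k kinases) 7 were higher, with a median of 0.07. With median scaling 1 of the 71 (median 0.03) and 0 of the 58 (median 0.02) were higher by limma, with 1 of the 58 higher at an unadjusted p under 0.05.

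Among 14 regulators of mitochondrial biogenesis tested, 4 were higher, 1 was lower and 9 did not pass. The coactivator Ppargc1a averaged 6.84 ± 0.33 log2 in mutants and 6.02 ± 0.29 in controls, a difference of 0.83 ± 0.13 (adjusted p = 4.68e-05, and 0.79 with median scaling). Its relative Ppargc1b differed by 0.51 ± 0.08 (adjusted p = 9.26e-05, and 0.42 with median scaling). Polrmt (0.26), the mitochondrial RNA polymerase, and Tfb2m (0.27), its initiation factor, were higher with quantile normalisation and not with median scaling. Polg, the mitochondrial DNA polymerase, fell by 0.42 log2 (6.83 ± 0.13 in mutants and 7.25 ± 0.13 in controls; adjusted p = 1.97e-05; -0.47 with median scaling). The receptor Esrra (0.04), the factor Nrf1 (0.17) and the mitochondrial transcription factor Tfam (0.16) did not pass. The probe of Yy1 was detected on no array. Vdac1, the outer membrane channel, was the 1 called gene among the 6 tested of the carrier list, at 0.24 ± 0.05. Slc25a4 and Slc25a13 of that list were detected on no array.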

How the data were processed

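Expression was measured in total RNA by Illumina WG6_V2 bead array, per the labels. The deposited table holds raw linear intensity values, each beside its detection p-value; GenomeStudio 2009.2 is listed in the submitters' processing notes. A second deposited table holds intensity values that are a straight line of the raw values of each array (slopes 0.754 to 1.38, largest residual 0.011). Which normalisation produced it was not stated. Raw values were background-corrected with normexp on the detection p-values (offset 16), quantile-normalised and taken to log2 with limma 3.58.1 in R 4.3.3. Of the probes, 34885 had 1 symbol, 18 had several and 10378 were unnamed in the annotation. Groups were compared with lmFit and eBayes, Benjamini-Hochberg adjustment over 16641 tested probes, and a threshold of 0.05. A gene is its tested probe of highest mean. The members and all lists were chosen with earlier results of these data known. Named genes were complex II, Cyc1 and Cycs; in the other complexes the 5 called genes with the largest difference and the 2 others with the highest mean; tissue isoforms with their counterparts; genes called under both scalings; and genes whose probes disagreed. Replicate numbers were not taken as pairs: correlations of same-numbered deviations ran from -0.25 to 0.30, and 6 of 10 exceeded 0.1. These values do not settle whether same-numbered samples were paired. The fit was tested on simulated data. The labels call the samples biological replicates; arrays limit the precision by their number.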

Additional observations from a re-analysis of the deposited data

Results flagged for a closer look

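Of 37 named genes whose mutant values were examined, 3 had 1 array far from the other 9, measured as its gap to the nearest other array over the range of the group. Chance marks about 1 in 20 such groups. Atp5h was low in mutant 10 (0.579), at 11.29 log2 against 11.70 to 12 in the other mutants. Cox4i1 was high in mutant 8 (0.595), at 14.35 against 13.94 to 14.11. Ndufs4 was low in mutant 8 (0.616), at 11.45 against 11.68 to 11.83. The 10 mutant values of Cox7a1 lay between 11.50 and 11.77.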

How the results depend on the processing

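Under every alternative run, 0 members were called lower and all medians per complex stayed positive. Members called higher, 27 with quantile normalisation, were 2 with median scaling, 9 with 75th percentile scaling, 24 with cyclic loess, 12 with the deposited processed values, 28 without background correction, 26 without a filter on dim probes and 29 with the mean of a symbol's probes. All genes higher and lower were 462 and 1252 with median scaling, and 754 and 1502 with 75th percentile scaling. They were 1120 and 1226 with cyclic loess, and 942 and 1195 with the deposited processed values. Without background correction they were 1089 and 1283, and without a filter on dim probes 896 and 1138. With the mean of a symbol's probes they were 1065 and 1277. Without the 3 controls highest in Ahsg 16 members were called, with 801 genes higher and 1063 lower. The alternatives defined by component 1, by Car1 and by Ahsg were chosen after seeing the data. Without the 6 Car1 mutants, 556 genes were higher and 695 lower, with medians of 0.34 in complex II and 0.17 in complex IV. Within the 10 low samples 4 members, 553 genes higher and 824 lower were called, and within the 11 high samples 16, 531 and 701, with medians of 0.23 over the members, 0.16 in complex IV and 0.17 in complex V. With the split as a block 37 members were called, with 1315 genes higher and 1520 lower. The cause was not tested. With the replicate number as a block, 22 members were higher and 0 lower, with 882 genes higher and 1118 lower. Whether these numbers pair the samples is not known. Leaving out 1 array gave 22 to 29 members higher (22 without control 11, 29 without mutant 10) and 0 lower, 946 to 1105 genes higher and 1156 to 1266 lower, a member median of 0.15 to 0.18, and medians of 0.17 to 0.21 in complex I, 0.13 to 0.21 in II, 0.10 to 0.14 in III, 0.09 to 0.11 in IV and 0.08 to 0.11 in V. Cox7a1 ranged from 1.14 to 1.37 and Ndufa4 from 0.41 to 0.59 over 15 alternatives, with the call kept in each. Of the named genes' values under these alternatives, 461 stayed on their side of the threshold, 88 lost the call and 6 gained it. Among the 461, 8 values of Atp5b, Ndufa13 and Cox6b2, never called, had the opposite sign, and those of Cox4i2 and Uqcr10, which differed by 0.00, lay on either side of it.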

Other observations

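The 2 tested probes of Ndufb10 moved in opposite directions across arrays of both genotypes. On mutants 2, 5, 6, 7 and 9 the brighter probe ran from 10.21 to 10.86 log2 and the second from 8.21 to 8.57, and on controls 1, 2, 3, 7 and 9 they ran from 10.01 to 10.25 and from 7.92 to 8.14. On the other 5 mutants the brighter probe ran from 9.38 to 9.84 and the second from 9.39 to 9.90, and on controls 4, 6, 8 and 10 from 8.84 to 9.43 and from 9.03 to 9.56. On controls 5 and 11 the brighter probe was at 5.86 and 5.42 and the second at 10.09 and 9.48. The labels give the strain as mixed, and no cause was tested.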
